A study of Mus musculus with 37 samples.

Results

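The 8 genes described here encode complement C3, C4b and the proteases and regulators that act on them, namely C3, C4b, Serping1, Cfb, C1ra, C1s1, Cd55 and Cd59a. They were chosen by symbol, through the Ensembl gene identifier, and all 8 were found among the 21975 genes of both tables. Complement is a cascade of proteins best known from plasma, in which proteases of the classical pathway (C1r and C1s) cleave C4 and C2, and the resulting enzyme cleaves C3, whose fragments tag surfaces. Factor B drives the alternative pathway, which amplifies C3 cleavage. C1 inhibitor (Serping1) blocks C1r and C1s, CD55 speeds the decay of the C3-cleaving enzymes, and CD59 blocks assembly of the membrane attack complex. In brain, astrocytes are known to make C3 and C4, and C3 is widely used as a marker of reactive astrocytes. The C1q genes, which microglia express, were not among the members.

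RNA sequencing was done on cortical astrocytes collected with ACSA-2 MicroBeads from wild-type male mice at 4 months after surgery. Their strain is CD1 in the paper and CD31 in GEO's labels. Injured mice had a severe controlled cortical impact (CCI), a piston injury to one side of the cortex, and were divided by outcome into mice that developed post-traumatic epilepsy (PTE+) and mice that did not (PTE-), while sham mice had the craniectomy and electrodes without impact. Outcome was observed and not assigned. The ipsilateral cortex gave 4 PTE+, 10 PTE- and 5 sham libraries, and the contralateral cortex gave 4 PTE+, 9 PTE- and 5 sham libraries, from 20 mice, of which 17 had both hemispheres sequenced. Each library of a group and hemisphere came from a separate mouse.

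Values are TPM, an estimated transcript level scaled for transcript length and library size, so levels can be set side by side between genes. TPM keep no sequencing depth, so the depth of each library is unknown, and the paper gives only an average over samples. In all libraries the 12 astrocyte markers were present, with summed levels from 15764 to 22908 TPM. The ipsilateral library of PTE- mouse 9_14 stood apart, with 10727 genes above 0 TPM against 15599 to 18534 in the other libraries, and the ipsilateral differences that it changed are given with and without it. In these bulk samples fewer cells of a type and less RNA per cell cannot be told apart. A gene was called when the unadjusted limma p was under 0.05, the fold change was at least 1.2 and the mean was above 5 TPM in a compared group, which are the thresholds of the study. Differences are in log2(TPM + 1) and understate changes of genes with low TPM.

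C4b, Serping1 and Cd59a were the most abundant members by group mean in both hemispheres, and the other 5 had group means from 1.14 to 9.14 TPM. C4b had the highest mean of the 8 in the ipsilateral groups and Serping1 in the contralateral groups. In contralateral sham cortex the means were 46.7 ± 13.9 TPM for C4b, 52.0 ± 27.2 for Serping1 and 24.3 ± 5.99 for Cd59a (SD, n = 5), and the ranges of C4b and Serping1 overlapped. Cfb was at 7.96 ± 6.57, Cd55 at 7.28 ± 3.90, C3 at 3.68 ± 3.23, C1ra at 3.48 ± 3.11 and C1s1 at 1.65 ± 0.913 TPM (SD, n = 5), and these 5 overlapped in range. On GRCm38, C3 lies at chr17:57203970-57228136, C4b at chr17:34728380-34743882 and Cfb at chr17:34856374-34862518, all on the minus strand. C1ra (chr6:124512405-124523443, plus strand) and C1s1 (chr6:124530345-124542359, minus strand) are neighbours. Serping1 lies at chr2:84765387-84775444 (minus), Cd59a at chr2:104095801-104115354 (plus) and Cd55 at chr1:130439027-130462744 (minus).

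Several members have near copies that can share reads. Of the 100-base windows of the longest coding transcript, 34.5% of C1ra were found in C1rb, 16.5% of C4b in C4a, 7.9% of C1s1 in C1s2, 6.86% of Cd55 in Cd55b and 0.293% of Cd59a in Cd59b. The median levels over all libraries were 0.06 TPM for C1rb, 0.45 for C1s2, 0 for Cd55b and 7.4 for Cd59b, and no gene carried the symbol C4a. Values of C1ra are therefore uncertain to the extent that reads were divided between copies. For C4b it is unknown whether reads from C4a were counted in it.

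The bases upstream of the start site are shown for C3, which had the largest ipsilateral change, and for Cd55 and Cd59a, which differed between hemispheres in sham mice. The 250 bases before the start were taken from RefSeq promoters of GRCm38.p6, which held 5 of the 8 members. Both strands were searched for STAT (TTCNNNGAA), C/EBP (TTGCNNAA), AP-1 (TGANTCA), interferon response and kappaB motifs, and capitals mark the matches. C3 (chr17:57228137-57228386, minus strand) held a C/EBP match from -45 to -38, Cd59a (chr2:104095551-104095800, plus strand) held an interferon match from -187 to -178, and Cd55 (chr1:130462745-130462994, minus strand) held none of the 5 motifs.
C3: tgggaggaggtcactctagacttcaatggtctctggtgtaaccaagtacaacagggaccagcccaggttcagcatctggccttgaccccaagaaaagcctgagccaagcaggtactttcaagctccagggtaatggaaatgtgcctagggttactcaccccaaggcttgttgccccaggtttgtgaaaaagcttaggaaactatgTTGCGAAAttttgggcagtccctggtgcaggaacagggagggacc
Cd55: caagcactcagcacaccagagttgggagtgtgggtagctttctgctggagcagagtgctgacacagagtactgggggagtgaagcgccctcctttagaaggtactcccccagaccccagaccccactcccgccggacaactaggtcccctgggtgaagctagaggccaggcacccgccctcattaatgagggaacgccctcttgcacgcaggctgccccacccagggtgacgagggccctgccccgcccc
Cd59a: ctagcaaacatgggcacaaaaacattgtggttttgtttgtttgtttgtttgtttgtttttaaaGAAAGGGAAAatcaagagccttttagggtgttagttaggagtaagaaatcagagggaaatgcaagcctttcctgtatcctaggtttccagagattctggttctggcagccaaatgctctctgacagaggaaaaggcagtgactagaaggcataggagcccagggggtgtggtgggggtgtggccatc
Of 32851 promoters of the same length, 9.56% held the C/EBP letters, 7.02% STAT, 6.75% AP-1, 3.9% kappaB and 2.98% interferon. A match is a description of the letters and not of a bound site.

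In the ipsilateral cortex C4b was higher after injury. Sham libraries had 27.23, 32.28, 44.36, 56.23 and 69.01 TPM, PTE+ libraries had 56.5, 61.32, 120.3 and 149.23 TPM, and PTE- libraries ran from 34.41 through a median of 91.7 to 151.48 TPM. Among the 14 injured libraries, 9 exceeded all sham libraries and 13 exceeded the sham median. The difference between CCI and sham was 0.97 (95% interval 0.37 to 1.57, 1.96-fold, two-sided exact permutation p = 0.00628, limma adjusted p = 0.9997), and it was 1.07 without mouse 9_14 (exact permutation p = 0.00128). Within the 2 mouse name prefixes, whose meaning is not stated, it was 1.09 and 0.89.

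C3 varied widely among injured mice. Sham libraries had 0.86, 1.08, 2.83, 3.5 and 3.76 TPM, PTE+ libraries had 3.32, 4.81, 10.63 and 17.81 TPM, and PTE- libraries ran from 0 through a median of 8.46 to 25.36 TPM. Among these 14, 11 exceeded all sham libraries and 2 fell below all of them, PTE- mice 9_14 at 0 and 9_12 at 0.26 TPM. The difference between CCI and sham was 1.197 (95% interval -0.04 to 2.43, exact permutation p = 0.0777) and was not called. Without mouse 9_14 it was 1.42 (0.41 to 2.42, exact permutation p = 0.0181) and was called. The paper, which tested counts with DESeq2, lists C3 among its top upregulated genes for ipsilateral CCI against sham.

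**Figure D1:**
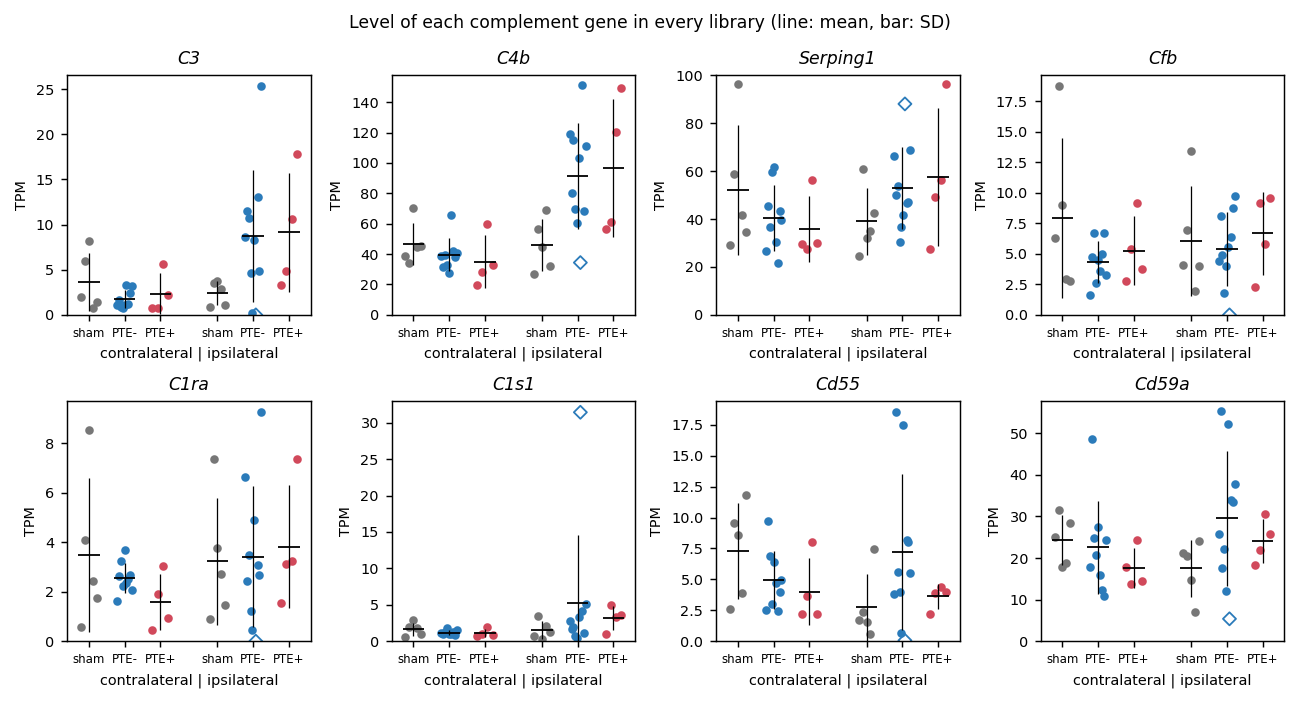
Level of each of the 8 genes in TPM (vertical axis, linear from 0) in every library, by group in the contralateral (left 3) and ipsilateral cortex (right 3). Points are mice, horizontal lines are means, vertical bars are SD, and the open diamond is the ipsilateral library of PTE- mouse 9_14. Ipsilateral C4b reached 151.48 TPM in injured mice and 69.01 TPM in sham mice.

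Among the regulators, none was called between CCI and sham in the ipsilateral cortex with all libraries. Cd55 was at 2.73 ± 2.70 TPM in sham (n = 5), 7.19 ± 6.30 in PTE- (n = 10) and 3.63 ± 0.990 in PTE+ mice (n = 4, SD), and sham mouse 9_9 at 7.42 TPM lay above all 4 PTE+ mice. Its difference between CCI and sham was 0.80 (95% interval -0.32 to 1.92, exact permutation p = 0.177). Without mouse 9_14, where Cd55 was at 0.06 TPM, it was 0.98 and was called, although the exact permutation p was 0.0631. Cd59a was at 17.5 ± 6.85 TPM in sham, 29.6 ± 16.3 in PTE- and 24.1 ± 5.32 in PTE+ mice (SD). Its difference was 0.57 (-0.23 to 1.37, exact permutation p = 0.178), and without mouse 9_14 it was 0.73 (exact permutation p = 0.0416) and was called. Serping1 was at 39.0 ± 13.8 TPM in sham, 53.0 ± 17.2 in PTE- and 57.4 ± 28.8 in PTE+ mice (SD), with a difference of 0.45 (-0.07 to 0.96, exact permutation p = 0.106) that was 0.39 without mouse 9_14 (exact permutation p = 0.143). In mouse 9_14 Serping1 was at 88.01 TPM, the highest of the PTE- libraries.

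The proteases showed no call between CCI and sham ipsilaterally. Cfb was at 6.07 ± 4.48 TPM in sham, 5.38 ± 3.05 in PTE- and 6.70 ± 3.39 in PTE+ mice (SD), a difference of -0.07 (95% interval -1.03 to 0.89, exact permutation p = 0.891) that became 0.13 without mouse 9_14. C1ra and C1s1 did not pass the filter on low TPM in that comparison. C1ra differed by 0.04 (exact permutation p = 0.928). C1s1 differed by 0.72 (exact permutation p = 0.199) and by 0.48 without mouse 9_14, in which it was at 31.44 TPM against at most 5.06 in the other PTE- libraries.

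Counted over the list, 6 of the 8 members passed the filter for ipsilateral CCI against sham and 1, C4b, was called, beside 1.62% of 10434 genes called in either direction and 1.24% called higher. The median difference was 0.65 over the 8 members, 0.69 over the 6 that passed the filter and -0.01 over all genes tested. Without mouse 9_14, C3, C4b, Cd55 and Cd59a were called, beside 2.99% of genes called higher. With the mouse as a replicate block over both hemispheres the same 4 were called in place of 1, beside 2.08% of genes called higher. That fit held only the 17 mice with both libraries, so it also lacked mouse 9_14, as well as PTE+ mouse 9_19. The effect of the block was not separated from that of leaving out these mice. Serping1 was called as well without PTE+ mouse 8_10 (0.51) or sham mouse 8_16 (0.62). No gene of the whole table had an adjusted p under 0.05 in this comparison with all libraries, while 195 had an unadjusted p under 0.05.

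Each outcome group was also compared with sham, and the sham libraries are shared by these comparisons. In PTE- mice C4b was called (0.95, 95% interval 0.32 to 1.58, exact permutation p = 0.014), as 1 member beside 1.54% of genes in either direction and 1.17% higher. C3 differed by 1.10 (exact permutation p = 0.147) and was not called. Without mouse 9_14, C3 (1.40), C4b (1.09), Cd55 (1.19) and Cd59a (0.82) were called, beside 3.06% of genes higher. In PTE+ mice C3 (1.44, 0.42 to 2.47, exact permutation p = 0.0317) and C4b (1.02, 0.29 to 1.75, exact permutation p = 0.0556) were called, beside 1.56% of genes in either direction and 1.19% higher. With 4 against 5 mice the smallest exact p is 0.00794. Serping1 was at 0.48 and was not called, and it was 0.78 and called without PTE+ mouse 8_10. The C3 call was lost when the 3 groups were fitted together.

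Between PTE+ and PTE- mice the ipsilateral cortex gave no called member, beside 0.573% of genes. The difference was 0.35 for C3 (95% interval -1.26 to 1.95) and 0.07 for C4b (-0.66 to 0.79), so changes of 1 log2 unit in C3 in either direction lie within the interval. Without mouse 9_14 the difference was 0.039 for C3 (-1.23 to 1.31) and -0.074 for C4b (-0.65 to 0.51). With the mouse as a replicate block over both hemispheres it was -0.34 for C3 and -0.32 for C4b. That fit left out mouse 9_14 and also PTE+ mouse 9_19. Mouse 9_19 had the highest C3 (17.81 TPM) and C4b (149.23 TPM) of the ipsilateral PTE+ libraries. Without mouse 9_19 alone the differences were -0.030 and -0.18, so the sign for both depended on the mice included. C3 in the 4 PTE+ mice lay within the range of the PTE- mice, with 2 above and 2 below their median. Within the mouse name prefixes the C3 difference was -1.13 in prefix 8, which held 1 PTE+ library, and 0.999 in prefix 9. All 4 PTE+ mice lay below the PTE- median of Cd55, with a difference of -0.39 (-1.76 to 0.99, exact permutation p = 0.586) that was -0.66 without mouse 9_14 (-1.72 to 0.39, exact permutation p = 0.281).

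In the contralateral cortex no member was called in any comparison. All 8 had a lower mean log2 level after CCI than in sham, and none had an exact permutation p under 0.05. Their median difference was -0.32, and -0.34 over the 5 that passed the filter, against -0.07 over all genes tested. C3 was at 0.79, 1.42, 2.01, 5.98 and 8.18 TPM in sham, at 0.73, 0.81, 2.2 and 5.65 TPM in PTE+, and from 0.72 through 1.21 to 3.3 TPM in PTE- mice. C4b was at 34.34, 38.81, 44.87, 45.15 and 70.24 TPM in sham, at 19.81, 27.91, 32.91 and 59.6 TPM in PTE+, and from 27.41 through 38.48 to 65.8 TPM in PTE- mice. For both genes the groups overlapped.

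The contralateral counts of called members were 0 beside 4.05% of genes for CCI against sham, 3.76% for PTE- against sham, 1.97% for PTE+ against sham and 2.79% for PTE+ against PTE-. At an unadjusted p under 0.05 limma gave 472, 414, 211 and 303 genes in these comparisons. C4b differed by -0.30 between CCI and sham (95% interval -0.74 to 0.14). C1ra, below the filter, was at 0.47, 0.93, 1.91 and 3.04 TPM in PTE+ mice and from 1.61 through 2.53 to 3.68 TPM in PTE- mice. Its difference was -0.55, and it was the 1 of 8 members with an exact permutation p under 0.05 there (p = 0.0378, unadjusted by exact permutation). These counts rested on single mice: without PTE+ mouse 9_17, C4b (-0.76), Cd55 (-1.04) and Cd59a (-0.60) were called lower in PTE+ than in sham mice, and C4b (-0.53) lower in PTE+ than in PTE- mice. Leaving out sham mouse 9_9, 8_15 or 9_10 gave 1 call in some of these comparisons. The shares of all genes above are from all libraries. Those without single mice are not given here, so these calls cannot be set against them.

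The hemispheres of the same mouse were compared next, in 12 injured and 5 sham mice with both libraries, none of them mouse 9_14. C4b was higher on the injured side in 12 of 12 injured mice, with ipsilateral to contralateral ratios from 1.03 through a median of 2.62 to 3.66. The mean difference was 1.22 (95% interval 0.59 to 1.85, exact sign-flip permutation p = 0.000488, the smallest these 12 mice can give). C3 was higher in 10 of 12, with ratios from 0.243 through 5.65 to 12.4 and a mean difference of 1.52 (0.16 to 2.89, exact permutation p = 0.00244). Both were called, as 2 members beside 4.38% of genes in either direction and 2.35% higher. C1s1, below the filter, was higher in 10 of 12 mice, with a mean difference of 0.56 (exact permutation p = 0.0176). The C3 call was lost without PTE+ mouse 9_17 (1.68) or 9_18 (1.49), and with no filter on TPM (1.52, limma p = 0.203).

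The remaining members differed less between the hemispheres of injured mice. Cd59a was higher ipsilaterally in 9 of 12 mice (mean difference 0.44, exact permutation p = 0.0977), Cd55 in 8 (0.27, p = 0.391 by exact permutation) and Serping1 in 8 (0.27, p = 0.199 by exact permutation). Cfb was higher in 7 (0.31, exact permutation p = 0.082) and C1ra in 9 (0.34, exact permutation p = 0.231).

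**Figure D2:**
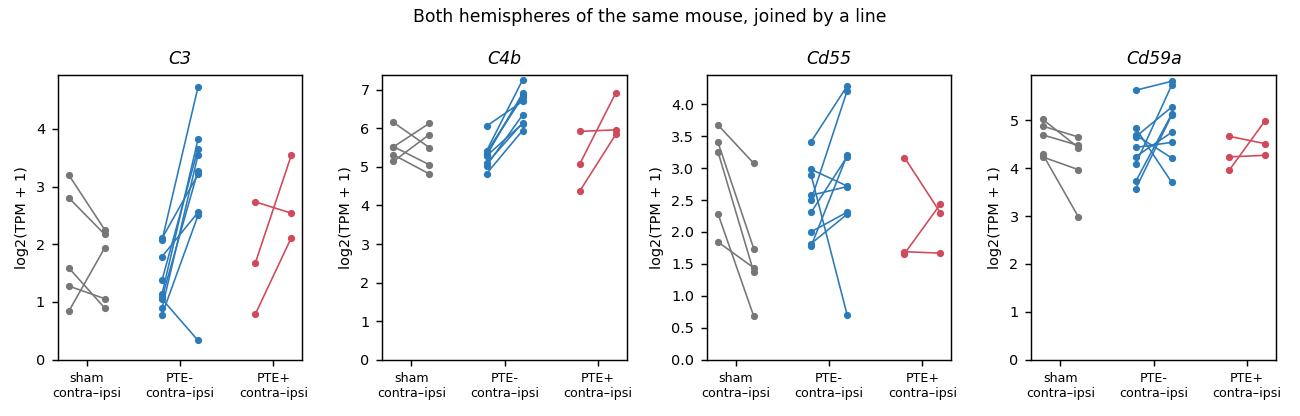
Levels of C3, C4b, Cd55 and Cd59a as log2(TPM + 1) in the contralateral (left point) and ipsilateral cortex (right point) of the same mouse, joined by a line, for 5 sham, 9 PTE- and 3 PTE+ mice. C4b rose towards the ipsilateral side in all 12 injured mice, and Cd55 and Cd59a fell in all 5 sham mice.

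In sham mice 2 of the 3 regulators were lower on the ipsilateral side and Serping1 was not called (-0.34, higher in 2 of 5). Cd55 was lower on the ipsilateral side in 5 of 5 sham mice, with ratios from 0.155 to 0.66 and a mean difference of -1.24 (95% interval -2.04 to -0.43). Cd59a was also lower in 5 of 5, with ratios from 0.37 to 0.852 and a mean difference of -0.53 (-0.998 to -0.05). Both had an exact permutation p of 0.0625, the smallest that 5 mice can give. These 2 members were called lower beside 5.34% of genes in either direction and 5.15% lower, and 546 of the 566 called genes were lower. The Cd59a call was lost without sham mouse 8_16 or 9_11, and also with quantile normalization (-0.37), median centring (-0.41), array weights (-0.45) or no replicate block (-0.53). C3 differed by -0.28 (higher in 1 of 5) and C4b by -0.06 (higher in 2 of 5).

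The injured and sham mice were then compared in this hemisphere difference. C4b (1.28, 95% interval 0.24 to 2.33, exact permutation p = 0.00129), Cd55 (1.503, 0.54 to 2.47, exact permutation p = 0.0113) and Cd59a (0.97, 0.19 to 1.74, exact permutation p = 0.0335) were called, beside 6.76% of genes in either direction and 6.2% higher. C3 had the largest difference, 1.80 (-0.12 to 3.73), with an exact permutation p of 0.00646, but its limma p was 0.0646 and it was not called. The C4b call was lost without sham mouse 8_15 (1.18) or 9_10 (1.14) and with no filter on TPM (1.28, limma p = 0.147). The Cd59a call was lost without 9_11 (0.77). C3 was called without 9_11 (2.15), with a pseudocount of 0.1 (2.20), and with no replicate block (1.80), a fit that ignores the pairing. For Cd55 the mean hemisphere difference was 0.27 in injured and -1.24 in sham mice, and for Cd59a it was 0.44 and -0.53. Between PTE+ and PTE- mice 0 members were called, beside 3.11% of genes, with a C3 difference of -0.70 and a C4b difference of -0.14 over 3 and 9 mice.

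The variance model mattered for C3 in these paired comparisons. In the fit as first run, limma's variance trend followed the mean within-mouse difference, which gave wide intervals to genes with large differences, and no gene passed an adjusted p of 0.05. A fit with the trend on the mean level of the gene was added after those values had been seen. It called C3 between CCI and sham (unadjusted p = 0.00183, adjusted 0.569), for 4 members in place of 3, beside 5.9% of genes called higher. In injured mice it gave adjusted limma p-values of 0.0374 for C3 and 0.000798 for C4b, among 22 genes under 0.05. The differences themselves and the exact permutation tests are the same under both.

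**Figure D3:**
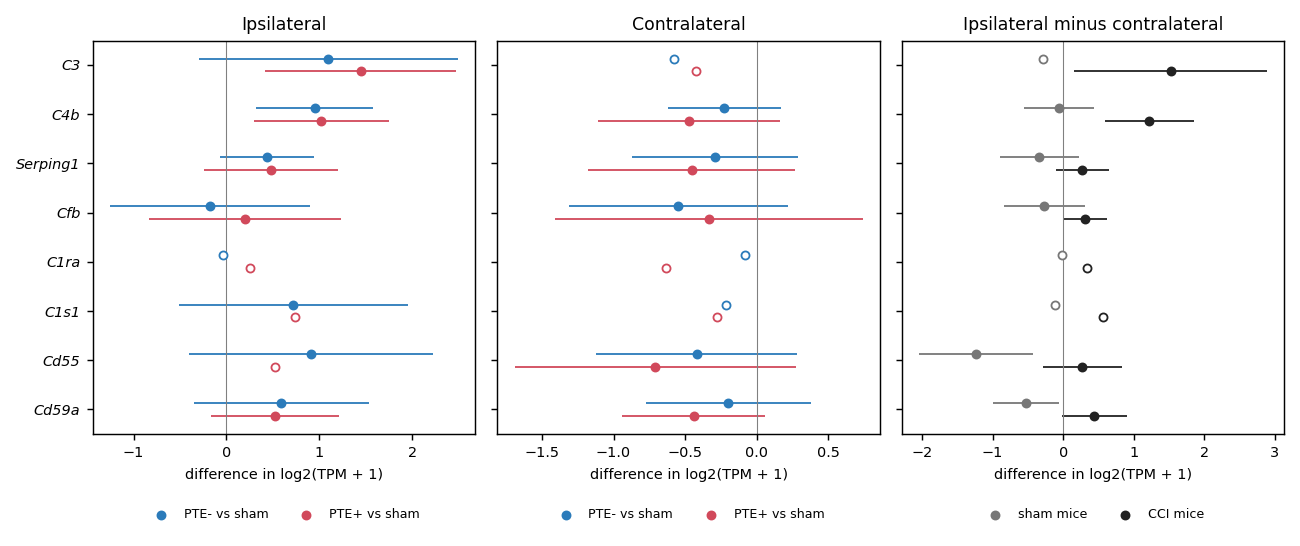
Difference in log2(TPM + 1) for each gene (horizontal axis) for PTE- and PTE+ against sham in the ipsilateral and contralateral cortex, and for ipsilateral minus contralateral cortex within sham and injured mice. Bars are 95% intervals of limma, from the fit as first run, and open points are genes that did not pass the filter on low TPM. C4b lay at 0.95 and 1.02 ipsilaterally and at -0.23 and -0.47 contralaterally.

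Genes whose ipsilateral pattern was most like that of C3 and C4b were named by Spearman's rho over the 19 ipsilateral libraries, among 10614 genes. Gfap, the intermediate filament of astrocytes, ranked first for both, with a rho of 0.919 to C3 and 0.947 to C4b. Next came Pawr (0.912), Rfx2 (0.896), Sema3b (0.892) and Slc38a1 (0.886) for C3, and Fam174b (0.902), Thbs4 (0.896) and Igfbp5 (0.872) for C4b. C3 and C4b had a rho of 0.861 with each other, the fifth highest for C4b. These values pool injured and sham libraries that differ in all 3 genes, and over the 18 contralateral libraries the rho of Gfap was 0.575 to C3 and 0.618 to C4b, and that between C3 and C4b was 0.501. The other genes named had contralateral rho from 0.302 (Rfx2) to 0.668 (Sema3b) with C3, and from 0.331 (Thbs4) to 0.792 (Igfbp5) with C4b. Among the other members in this ranking, the ipsilateral rho with C3 was 0.733 for Cd59a, 0.704 for Cd55, 0.646 for Cfb, 0.489 for Serping1 and 0.407 for C1s1, and with C4b it was 0.56, 0.525, 0.309, 0.442 and 0.407 in the same order. Over the contralateral libraries these were 0.046, 0.439, 0.583, 0.284 and 0.224 with C3, and -0.073, 0.333, 0.187, 0.069 and 0.416 with C4b, so the rho of Cd59a was near 0 there. Without mouse 9_14 the ipsilateral rho of Serping1 was 0.717 with C3 and 0.606 with C4b, that of C1s1 was 0.655 and 0.598, and that of Gfap was 0.905 and 0.946.

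Of 49 other complement genes, 14 passed the filter for ipsilateral CCI against sham and 0 were called there or in the other 3 ipsilateral comparisons. The median difference of these 14 was -0.10, against 0.69 for the 6 members that passed the filter. With mouse 9_14 left out, as added after these values were seen, 14 passed, 0 were called and their median was 0.008. The median of the 6 members that passed was then 0.85. The most abundant was clusterin (Clu), a secreted regulator of the terminal pathway, at 9562 TPM on average in sham, 10535 in PTE- and 10713 in PTE+ mice, with a difference of 0.15 for Clu. C2, the partner of C4 in the C3-cleaving enzyme, differed by -0.35. None of the 9 complement receptors passed the filter in that comparison.

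Elsewhere the other complement genes gave few calls. Masp2, a protease of the lectin pathway, was lower contralaterally in CCI (-0.58) and in PTE- mice (-0.56) than in sham, and Thbd, thrombomodulin, in PTE- than in sham mice (-0.69). Colec12, a collectin, was lower in PTE+ than PTE- mice contralaterally (-0.46). In the hemisphere difference of PTE+ against PTE- mice Colec12 was higher (0.56) and Cd59b, the near copy of Cd59a, lower (-1.60).

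Markers of reactive astrocytes and of other cells moved in part with these results. Of 26 reactive astrocyte genes, 21 passed the filter for ipsilateral CCI against sham and 5 were called higher, namely Gfap (1.18), Vim (0.95), Serpina3n (0.92), Cd44 (0.83) and Aspg (0.73). Without mouse 9_14, in counts likewise added afterwards, 8 of 22 were called higher. Between the hemispheres of injured mice 11 of 22 were called higher and 1 lower. The 12 microglial genes summed to 131.8 to 854.36 TPM in ipsilateral sham, 120.31 to 520.88 in PTE- and 168.76 to 376.97 in PTE+ mice, with 0 of 11 called between CCI and sham and 1 of 11 higher without mouse 9_14. Of 7 oligodendrocyte markers tested there, 3 were lower, with or without mouse 9_14, and their summed level ran from 519.04 to 4451 TPM in sham, 774.03 to 2257 in PTE- and 1180 to 2308 in PTE+ mice.

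The 12 meningeal and fibroblast genes summed to 68.15 to 237.5 TPM in ipsilateral and 108.69 to 407.98 TPM in contralateral sham cortex. Of 11 tested, 4 were called higher for the hemisphere difference of CCI against sham, the comparison in which Cd55 and Cd59a were called, and in sham mice 1 was lower ipsilaterally. In that sham comparison 3 of 9 endothelial and 2 of 7 mural markers were lower as well. Between the hemispheres of injured mice 4 of 9 endothelial, 2 of 7 mural and 3 of 7 oligodendrocyte markers were lower and 1 of 8 meningeal markers was higher. Between ipsilateral CCI and sham 0 of 9 meningeal markers were called with mouse 9_14 and 2 were higher without it. In ipsilateral injured cortex they summed to 114.48 to 256.91 TPM in PTE- and 116.67 to 387.65 TPM in PTE+ mice. At most 1 of the 12 had a group median under 1 TPM in the sham and ipsilateral groups. The part of these cells in the differences of the 8 members was not tested.

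**Figure D4:**
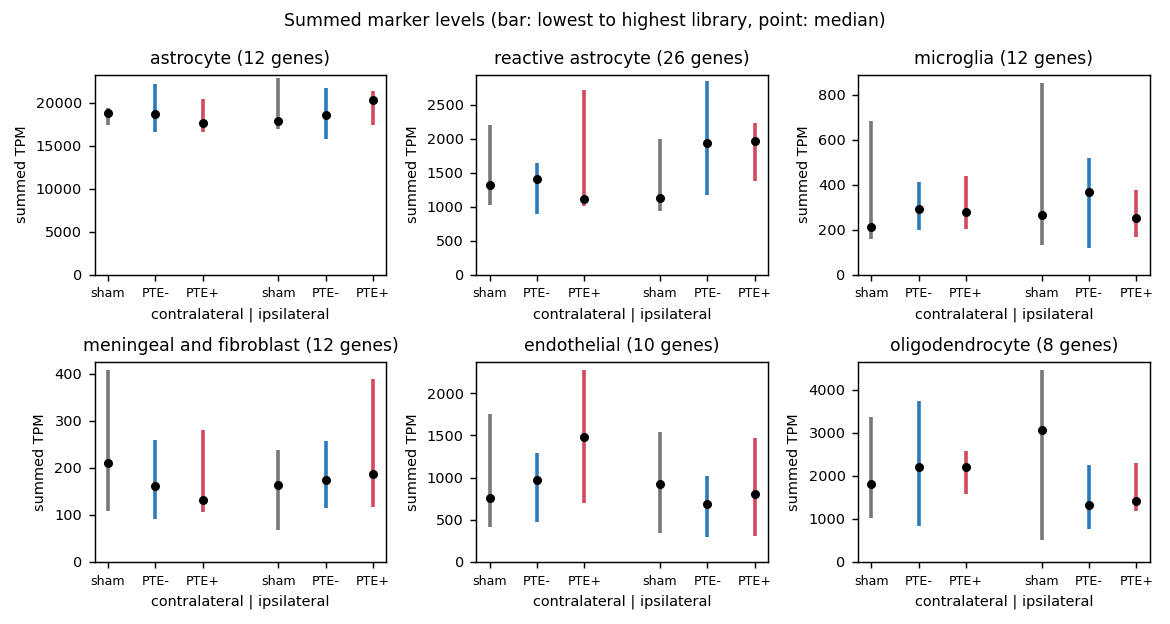
Summed TPM (vertical axis, linear from 0) of 6 marker lists by group in the contralateral (left 3) and ipsilateral cortex (right 3). Bars run from the lowest to the highest library and points are medians. The astrocyte sums lay between 15764 and 22908 TPM, and the ipsilateral reactive astrocyte medians were 1132 in sham, 1932 in PTE- and 1969 in PTE+ mice.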

How the data were processed

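Cortical astrocytes were isolated by the authors with ACSA-2 MicroBeads, and libraries (SMART-Seq v4) were trimmed with Trim Galore 0.6.4 and quantified with RSEM 1.2.28 and Bowtie2 2.4.1 on mm10, per the submitters' processing notes. The annotation release is not given in the sources used here. The authors deposited TPM per Ensembl gene, 1 table per hemisphere. Their own tests used DESeq2 1.36.0 on counts, which were not used here. Symbols and positions came from GENCODE M21 on GRCm38 and gave a symbol to 21856 of 21975 identifiers.

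log2(TPM + 1) was compared with limma 3.58.1 in R 4.3.3 with a variance trend, over genes with a mean above 5 TPM in a compared group, with Benjamini-Hochberg adjustment over all genes tested. Each member was also tested by two-sided exact permutation of libraries or mice. Hemispheres were compared on differences within the mouse, so the mouse is the block. The alternative with the mouse as a replicate block over both hemispheres used only the 17 mice with both libraries. Its ipsilateral groups therefore lacked mice 9_14 and 9_19. The 2 hemispheres of a mouse deviated together from their group means (median correlation 0.421 over 17 mice, above 0.1 in 16), and the pairing comes from the mouse names in the labels. p-values cover the spread between these mice. Scripts were tested on simulated data.

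The members and lists were chosen with earlier results of these data known. The hemisphere comparisons were fitted in 2 ways. The first run let limma place its variance trend on the mean within-mouse difference and is given as the main result. A trend on the mean level, the more usual covariate, was tried after the values of the first run had been seen, and it favoured C3, so it is given as an added alternative with both sets of values printed. The other alternatives were a pseudocount of 0.1, a filter at 1 TPM or none, quantile normalization, median centring, array weights, the mouse name prefix as a covariate, a joint fit of the 3 groups, the mouse as a replicate block, and leaving out single mice. The named genes are the 8 members and their near copies, called genes of the other lists (at most 4 of a list and comparison by p, of which the cell markers are given as counts) and the 5 genes most like C3 and C4b by Spearman's rho. C2, Clu, Stat3 in the ipsilateral cortex and the fifth reactive gene were added after values were seen. Tables were handled with pandas 2.3.3 and scipy 1.17.1 in Python 3.11.15. One called gene of the other complement lists is not reported here.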

Additional observations from a re-analysis of the deposited data

Results flagged for a closer look

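In 6 of 48 groups of libraries tested, 1 library lay far from the others of its group. The rule flags about 1 in 20 groups by chance only if values follow a normal distribution. It was applied to TPM on the linear scale, and in all 6 groups the flagged library was the highest. The 6 flagged libraries therefore cannot be set against that rate. These were C3 at 25.36 TPM in the ipsilateral cortex of PTE- mouse 9_20 (next highest 13.08), C1s1 at 31.44 TPM in ipsilateral PTE- mouse 9_14 (next 5.06) and Cd55 at 7.42 TPM in ipsilateral sham mouse 9_9 (next 2.33). On the contralateral side they were C4b at 65.8 TPM in PTE- mouse 9_13 (next 41.84), Serping1 at 56.34 TPM in PTE+ mouse 9_17 (next 29.9) and Cd59a at 48.5 TPM in PTE- mouse 8_13 (next 27.5).

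The hemisphere difference had an exact permutation p under 0.05 between injured and sham mice for 4 of 8 members. The same test between PTE+ and PTE- mice gave 0 members, for 16 tests over both comparisons. In injured mice the hemisphere difference was higher by 1.80 for C3 (exact permutation p = 0.00646), 1.28 for C4b (exact permutation p = 0.00129), 1.503 for Cd55 (exact permutation p = 0.0113) and 0.97 for Cd59a (exact permutation p = 0.0335), in log2(TPM + 1). The exact test was run on the members only. By the limma rule C3 was not called, and 6.2% of all genes were called higher in injured than in sham mice. The limma adjusted p of these 4 members was from 0.598 to 0.716.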

How the results depend on the processing

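C4b kept its call and direction in ipsilateral CCI against sham under the settings tried except the adjusted p, and calls of the other members moved with single libraries. Of all member values under alternatives, 1079 stayed on the same side of the threshold, 47 passed it newly, 25 no longer passed and 41 changed sign, counts of called members left out. The cause was not tested. With an adjusted p the count of called members was 0 in all comparisons. With array weights it was 2 in ipsilateral CCI and in PTE- against sham, 2 in contralateral PTE+ against sham, 1 in contralateral PTE+ against PTE- and 1 between hemispheres of sham mice. With quantile normalization it was 2 in ipsilateral PTE- against sham and 1 in sham hemispheres. With median centring it was 4 in hemispheres of injured and 1 of sham mice. The joint fit of 3 groups gave 1 in ipsilateral PTE+ against sham, and a filter at 1 TPM or none gave 1 in contralateral PTE+ against PTE-. Without PTE- mouse 9_14 it was 4 in ipsilateral CCI and in PTE- against sham. With the mouse as a replicate block, in a fit without mice 9_14 and 9_19, it was 4 in ipsilateral CCI against sham. Without the block it was 1 in sham hemispheres, and the block moved no other count past 1.5 times. The variance trend on the mean level, added after the first run was seen, gave 4 in place of 3 for the hemisphere difference of CCI against sham. The share of all genes called moves with the setting as well. In ipsilateral CCI against sham 1.24% were called higher in the main fit, 2.99% without mouse 9_14 and 2.08% with the block. For most other settings, and for leaving out single PTE+ or sham mice, this share is not given here. Those counts of called members therefore cannot be set against it.

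Leaving out single mice of the PTE+ and sham groups gave 1 to 2 called members in ipsilateral CCI and in PTE- against sham, 0 to 1 in contralateral CCI against sham, PTE- against sham and PTE+ against PTE-, 0 to 3 in contralateral PTE+ against sham, 1 to 3 in injured hemispheres, 1 to 2 in sham hemispheres and 2 to 5 for CCI against sham in the hemisphere difference.

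Differences that changed sign were small. For Cfb, ipsilateral CCI against sham was 0.19 with array weights and 0.071 with the replicate block, which also lacked mice 9_14 and 9_19. It was 0.13 without mouse 9_14 and -0.33 to 0.24 without single mice. PTE- against sham was 0.17 with array weights, 0.095 without mouse 9_14 and -0.44 to 0.14 without single mice, and PTE+ against sham was -0.070 to 0.56. Contralateral Cfb was -0.60 to 0.021 for PTE+ against sham and, with array weights, -0.20 for PTE+ against PTE-. For ipsilateral PTE+ against PTE-, the replicate block, without mice 9_14 and 9_19, gave -0.34 for C3, -0.32 for C4b, -0.16 for Serping1 and -0.097 for Cfb. Median centring gave -0.011 for C4b, -0.036 for Serping1 and -0.063 for C1s1, quantile normalization -0.082 for C1s1, the name prefix -0.013 for Serping1 and -0.13 for C1s1, and leaving out mouse 9_14 -0.074 for C4b. Without single mice that comparison ran from -0.030 to 0.68 for C3, -0.18 to 0.28 for C4b, -0.25 to 0.34 for Serping1, -0.19 to 0.35 for C1s1 and -0.19 to 0.051 for Cd59a. C4b between sham hemispheres was 0.019 with quantile normalization, 0.057 with median centring and -0.25 to 0.084 without single mice. The hemisphere difference of PTE+ against PTE- ran from -0.50 to 0.39 for C4b, -0.45 to 0.090 for Serping1, -0.81 to 0.0072 for Cd55 and -0.55 to 0.044 for Cd59a. The depth of each library is unknown, so counting error of the low members could not be separated from other spread.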

Other observations

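Of 21 genes of signals known to act upstream of reactive astrocyte genes, 17 passed the filter for ipsilateral CCI against sham and 1 was called, higher. Cntf, a cytokine of the interleukin-6 family, was at 1.808 ± 1.129 TPM in sham (n = 5), 13.512 ± 7.176 in PTE- (n = 10) and 10.392 ± 5.58 in PTE+ mice (n = 4, SD), a difference of 2.19 for Cntf between CCI and sham. Its lowest injured library was at 2.45 TPM and its highest sham library at 3.34 TPM. Stat3, a transcription factor downstream of that family, differed by 0.36 and was not called. Between the hemispheres of injured mice Il6st, the shared receptor subunit of the family, was higher ipsilaterally by 0.36 and Relb, a subunit of NF-kappaB, by 0.30. The relation of these genes to C3 and C4b was not tested.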
